A study of Mus musculus with 8 samples.

Results

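Cajal-Retzius cells are early-born neurons of the outermost layer of the developing cortex, and 9 genes known from them were described: Trp73, Lhx1, Lhx5, Nhlh2 and Ebf3 (transcription factors), Calb2 and Cacna2d2 (calcium proteins), and Ndnf and Car10 (secreted or surface proteins). They were chosen by name, though with earlier results of these data known, and are 9 of the 55487 genes measured. All 9 reached 0.5 CPM (reads assigned to a gene, scaled to the same total in every library) in at least 4 of the 8 libraries and were tested among 16573 such genes. RNA was sequenced from cortex dissected from mouse embryos on embryonic day E18.5, in 4 control libraries and 4 libraries labelled Upf2cKO. Upf2 encodes a protein needed for nonsense-mediated mRNA decay (NMD), which degrades transcripts with a premature stop codon. The libraries labelled Upf2cKO came from Upf2 fl/fl;Emx1-Cre embryos. Controls 1, 3 and 4 were Upf2 fl/fl and control 2 was Upf2 fl/+, all without Cre. The Emx1-Cre transgene acts in progenitors of the dorsal forebrain, and cells that enter the cortex from elsewhere, interneurons among them, are not its targets.

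Cajal-Retzius cells arise at the edges of the cortical sheet, in the cortical hem, the septum and the border with the subpallium, and spread over its surface below the meninges. They secrete reelin, the extracellular protein that guides the layering of migrating cortical neurons. Most of them die after birth. The transcription factor p73, made from Trp73, marks those from the hem and septum and is needed for their survival, while calretinin, made from Calb2, is a general marker of these cells and also of a class of interneurons. The labels do not say whether the Cajal-Retzius cells of these embryos had lost Upf2. In RNA of a whole cortex, fewer cells of a type and less RNA per cell cannot be told apart.

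By estimate, the libraries held 96.6 M to 156.0 M reads assigned to genes, so that 1 read was worth 0.00641 to 0.0104 CPM. The Upf2 value of the whole gene was higher in the libraries labelled Upf2cKO, at 143 ± 7.84 CPM against 61.8 ± 4.58 CPM (SD, n = 4 each), 2.31-fold (limma adjusted p = 3.35e-08). It does not check a deletion of single exons, and every direction given is for the libraries as labelled. The library labelled Upf2cKO 1 stood apart on the second principal component, and control 4 and the library labelled Upf2cKO 4 held most Ttr, the main transcript of the choroid plexus, at 119 and 258 CPM. The cortex label was met by the 8 cortex markers, all of which were expressed enough to be tested and which summed to 2037 to 2864 CPM over the libraries. Nothing in the labels names the embryo or litter behind each library, so the p-values speak of the spread among the libraries, which may be technical.

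The starts of Trp73, Nhlh2 and Lhx1 are shown because p73 isoforms differ in which start they use, because Nhlh2 encodes a factor of the class that binds E-boxes, and because Lhx1 shares its start region with a second RNA. The sequences are RefSeq's on GRCm38.p6 (mm10), 5′ to 3′ on the gene's strand, from 250 bases before to 50 after a RefSeq start. In the first 3, capitals mark the E-box CANNTG, and in the last they mark the bases from the annotated start of Lhx1os to that of Lhx1.
Trp73 upstream start, chr4:154139826-154140125, minus strand: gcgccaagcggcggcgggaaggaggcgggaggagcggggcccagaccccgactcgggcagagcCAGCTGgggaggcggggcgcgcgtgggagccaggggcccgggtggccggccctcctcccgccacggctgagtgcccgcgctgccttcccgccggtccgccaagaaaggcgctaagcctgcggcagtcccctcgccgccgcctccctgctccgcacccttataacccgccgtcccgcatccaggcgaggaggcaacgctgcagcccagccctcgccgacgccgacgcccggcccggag
Trp73 internal start, chr4:154097124-154097423, minus strand: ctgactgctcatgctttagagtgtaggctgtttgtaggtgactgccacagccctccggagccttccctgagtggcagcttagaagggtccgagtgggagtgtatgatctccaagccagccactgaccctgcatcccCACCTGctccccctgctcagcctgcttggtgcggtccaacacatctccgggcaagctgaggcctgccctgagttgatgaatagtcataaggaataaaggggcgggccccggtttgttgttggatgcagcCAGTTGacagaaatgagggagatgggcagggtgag
Nhlh2, chr3:102009895-102010194, plus strand: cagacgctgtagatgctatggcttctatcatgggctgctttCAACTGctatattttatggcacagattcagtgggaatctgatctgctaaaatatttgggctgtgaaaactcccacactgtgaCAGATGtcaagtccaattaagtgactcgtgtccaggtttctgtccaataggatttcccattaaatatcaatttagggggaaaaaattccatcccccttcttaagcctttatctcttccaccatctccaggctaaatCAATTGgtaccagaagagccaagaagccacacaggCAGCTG
Lhx1, chr11:84525485-84525784, minus strand: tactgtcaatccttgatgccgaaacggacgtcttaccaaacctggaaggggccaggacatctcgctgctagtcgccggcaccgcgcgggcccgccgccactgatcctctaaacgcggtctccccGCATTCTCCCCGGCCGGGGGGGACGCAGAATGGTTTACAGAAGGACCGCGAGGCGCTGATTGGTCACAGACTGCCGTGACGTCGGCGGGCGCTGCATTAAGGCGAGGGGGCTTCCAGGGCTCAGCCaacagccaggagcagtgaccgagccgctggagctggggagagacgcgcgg
The GC content was 77.7% at the upstream start of Trp73 and 57.7% at the internal one, against a median of 52.7% over all 32851 windows of the table. The internal window held 2 E-boxes, the upstream one 1 and the Nhlh2 window 4, and 72.3% of all windows held at least 1. The other motifs searched on both strands were TAATTA, a homeodomain site, in 5.29% of all windows, CCCNNGGG, an EBF site, in 13.7%, and TATAAA, the TATA box, in 13.6%. None of these 3 was found in the 4 windows shown. Of the 9 genes, 6 had a window (Trp73, Lhx1, Cacna2d2, Nhlh2, Ebf3 and Car10), with 8 windows in all.

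Of the 9 genes, 7 were higher in the libraries labelled Upf2cKO, Calb2 was lower and Ebf3 did not pass the test (limma on log2(CPM + 0.1), two-sided, Benjamini-Hochberg adjusted p under 0.05 over 16573 genes). Among all tested genes 36.7% were higher and 26.3% lower, 63% in either direction, so that a change was the commoner result in this comparison. The counts of the further lists below are to be read beside the same shares. With the median-of-ratios scaling 5135 genes were higher and 5787 lower, with TPM 7341 and 3328, against 6082 and 4359 in the main comparison. All libraries labelled Upf2cKO lay above all controls for 5 of the 9 genes and below them for 1, against 34.3% and 22.3% of all tested genes. The median log2 change of the 9 was 0.37, and that of all tested genes was 0.04.

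**Figure D1:**
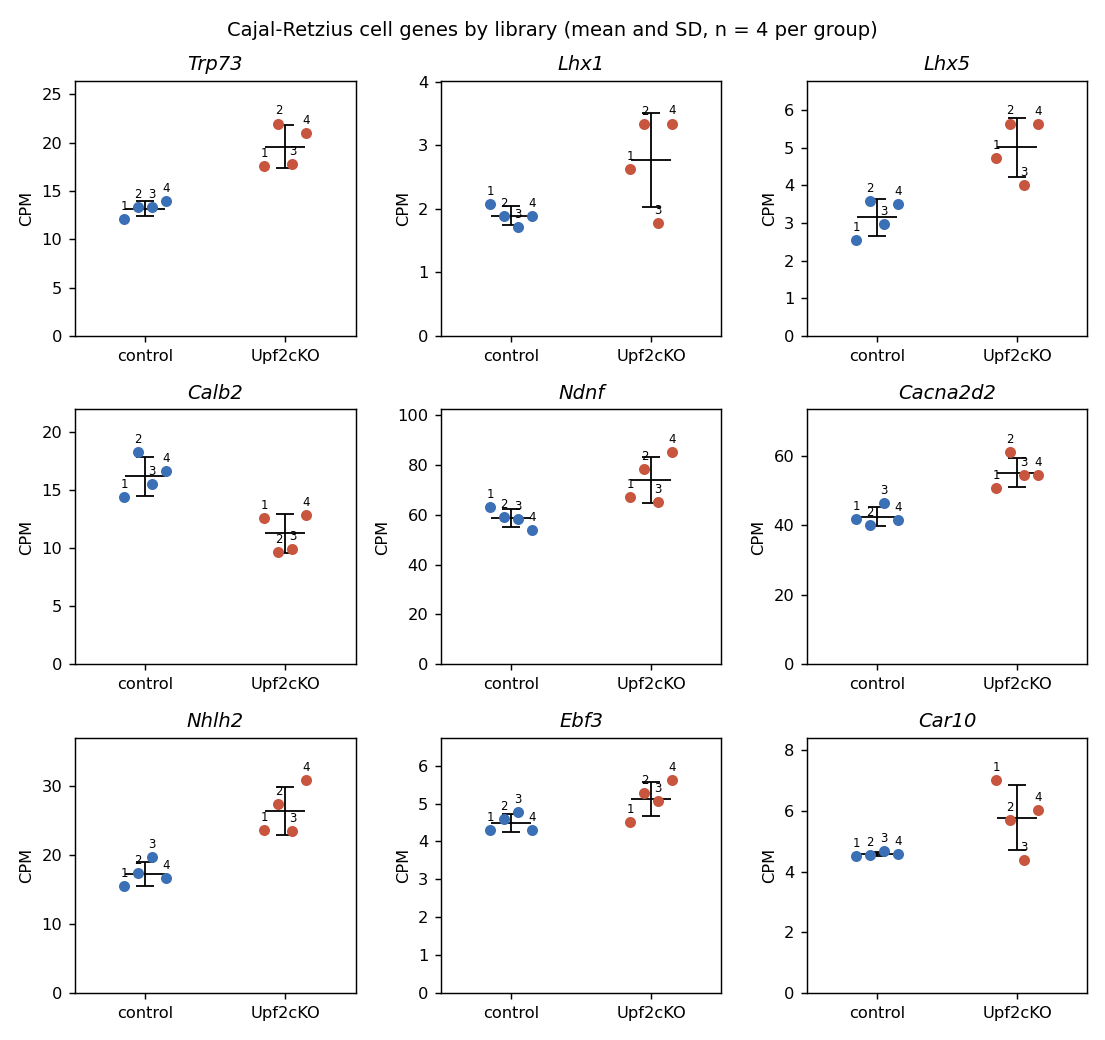
CPM of the 9 genes in each library, 1 panel a gene with its own axis from 0, with points numbered by replicate, bars at the mean and whiskers of 1 SD (n = 4 a group). The groups are apart without overlap for Trp73, Lhx5, Calb2, Ndnf, Cacna2d2 and Nhlh2, and they overlap for Lhx1, Ebf3 and Car10.

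Trp73 encodes p73, the p53 relative that Cajal-Retzius cells of the hem and septum depend on. It lies on chromosome 4 from 154056253 to 154140208, minus strand, in the GENCODE M21 annotation of mm10. Controls 1 to 4 held 12.1, 13.3, 13.4 and 13.9 CPM, and the libraries labelled Upf2cKO 1 to 4 held 17.6, 21.97, 17.8 and 21.0 CPM. The lowest of the second group stood above the highest control. The mean rose from 13.2 ± 0.760 to 19.6 ± 2.24 CPM (SD, n = 4), 1.48-fold on the log2(CPM + 0.1) scale (log2 change 0.56, SE 0.08, limma adjusted p = 0.000157). Each value rests on 1233 to 2930 reads. Trp73 has 7 annotated transcripts, of which 1, starting in the internal window shown above, is annotated as a target of NMD; none of the other 8 genes has such a transcript. Gene values do not resolve transcripts, and which start the added RNA came from was not measured.

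Lhx1 and Lhx5 encode LIM-homeodomain factors present in Cajal-Retzius cells, and Lhx5 takes part in their distribution. Lhx5 (chromosome 5, 120431699 to 120441223, plus strand) was measured at 2.55, 3.58, 2.96 and 3.51 CPM in the controls and at 4.73, 5.64, 4.02 and 5.63 CPM in the libraries labelled Upf2cKO. The groups did not overlap, and the library labelled Upf2cKO 3 was the one nearest to the controls. The mean of Lhx5 rose from 3.15 ± 0.487 to 5.005 ± 0.783 CPM, 1.57-fold (log2 change 0.65, SE 0.14, limma adjusted p = 0.00212). This was the largest rise of the 9 genes in the main comparison.

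Lhx1 (chromosome 11, 84518284 to 84525535, minus strand) held 2.08, 1.89, 1.71 and 1.88 CPM in the controls and 2.62, 3.33, 1.78 and 3.34 CPM in the libraries labelled Upf2cKO. The library labelled Upf2cKO 3 lay within the controls and the other 3 above them. The mean went from 1.89 ± 0.151 to 2.77 ± 0.740 CPM, 1.40-fold (log2 change 0.49, SE 0.18, limma adjusted p = 0.0365). The call did not hold without control 2, 3 or 4 or the library labelled Upf2cKO 2 or 4, with limma adjusted p up to 0.102 for 1 library left out, and it was firmer without the library labelled Upf2cKO 3 (adjusted p = 0.00126). At 186 to 466 reads, Lhx1 was among the genes with the fewest reads of the 9.

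Lhx1os is transcribed away from Lhx1 from a start 126 bases from that of Lhx1, the stretch in capitals above, both starts included. The controls held 0.50 to 0.71 CPM of Lhx1os and the libraries labelled Upf2cKO 0.99 to 1.82 CPM. All of the second group lay above the controls, by 2.04-fold between the means on the log scale (limma adjusted p = 0.000688), and the library labelled Upf2cKO 3 was again the lowest of its group. Downstream of Lhx1 within 5 kb, on the same strand, lies Aatf, which encodes a factor of transcription and ribosome assembly. Aatf rose from 38.7 ± 2.40 to 103 ± 4.41 CPM, 2.67-fold (limma adjusted p = 6.23e-09), a level far above that of Lhx1. Whether Aatf reads were counted for Lhx1 was not tested.

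Nhlh2 encodes a basic helix-loop-helix factor of newly formed neurons and lies on chromosome 3 from 102010076 to 102015492, plus strand. Its CPM was 15.5, 17.5, 19.7 and 16.7 in the controls and 23.7, 27.4, 23.5 and 30.9 in the libraries labelled Upf2cKO. No control reached the lowest of these. The mean rose from 17.3 ± 1.75 to 26.4 ± 3.49 CPM, 1.52-fold (log2 change 0.60, SE 0.10, limma adjusted p = 0.000336). Its close relative Nhlh1 rose by a like factor, from 3.31 ± 0.755 to 4.94 ± 0.926 CPM, 1.49-fold (limma adjusted p = 0.0133). Without control 4 and the library labelled Upf2cKO 4 together, Nhlh1 did not pass (log2 change 0.52, adjusted p = 0.0694).

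Ebf3 encodes a COE-family factor found in Cajal-Retzius cells (chromosome 7, 137193673 to 137314445, minus strand). The controls held 4.30, 4.58, 4.77 and 4.30 CPM and the libraries labelled Upf2cKO 4.52, 5.28, 5.06 and 5.61 CPM. The library labelled Upf2cKO 1 lay within the controls and the other 3 above. The means were 4.49 ± 0.23 and 5.12 ± 0.458 CPM, and the log2 change of 0.18 (95% interval -0.01 to 0.38) did not pass the test (limma adjusted p = 0.0907). Without the library labelled Upf2cKO 1 it passed, at a log2 change of 0.24 (adjusted p = 0.0271). Of its relatives, Ebf1 had means of 2.73 and 2.53 CPM and Ebf2 of 0.435 and 0.615 CPM, and neither passed.

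Calb2 encodes the calcium buffer calretinin and was the only one of the 9 genes to fall. It lies on chromosome 8 from 110137502 to 110168210, minus strand. The controls held 14.4, 18.3, 15.5 and 16.6 CPM, and the libraries labelled Upf2cKO held 12.6, 9.70, 9.94 and 12.8 CPM. The groups did not overlap. The mean fell from 16.2 ± 1.66 to 11.3 ± 1.67 CPM, 1.44-fold lower (log2 change -0.53, SE 0.11, limma adjusted p = 0.00166), on 1040 to 2797 reads. Calbindin, another calcium buffer of the same family, made from Calb1, went the other way, from a mean of 10.9 to 22.4 CPM, 2.00-fold higher (limma adjusted p = 0.000494).

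The level of calretinin RNA relative to that of p73 shows the opposite course of the pair most plainly. The TPM of Calb2 divided by that of Trp73 was 3.77, 4.36, 3.68 and 3.79 in the controls and 2.28, 1.40, 1.77 and 1.94 in the libraries labelled Upf2cKO. The means were 3.90 ± 0.312 and 1.85 ± 0.363. As both genes were already seen to move, the ratio is a description and was not tested.

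Cacna2d2 encodes an α2δ subunit, which brings voltage-gated calcium channels to the cell surface (chromosome 9, 107399612 to 107529343, plus strand). The controls held 41.8, 40.1, 46.5 and 41.6 CPM and the libraries labelled Upf2cKO 50.8, 61.1, 54.35 and 54.4 CPM. All of the second group were above all controls. The mean rose from 42.5 ± 2.75 to 55.2 ± 4.29 CPM, 1.30-fold (log2 change 0.37, SE 0.06, limma adjusted p = 0.000446). Of 14 other calcium channel subunits tested, 9 rose and 1 fell. The largest rises were in Cacna1a (2.16-fold) and Cacna1b (2.14-fold), which encode the pores of P/Q-type and N-type channels, and Cacna1d, a pore of L-type channels, was lower. Cacna2d1 and Cacna2d3, the closest relatives of Cacna2d2 tested, rose 1.2-fold and 1.22-fold.

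Ndnf encodes a secreted protein that marks Cajal-Retzius cells and, later, interneurons of the same layer (chromosome 6, 65671590 to 65712326, plus strand). It had the highest CPM of the 9 genes, 62.8, 59.1, 58.1 and 53.9 in the controls and 67.0, 78.05, 65.2 and 85.0 in the libraries labelled Upf2cKO. The groups did not overlap, and the distance between control 1 and the library labelled Upf2cKO 3 was small. The mean rose from 58.5 ± 3.66 to 73.8 ± 9.39 CPM, 1.26-fold (log2 change 0.33, SE 0.08, limma adjusted p = 0.00558).

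Car10 encodes a carbonic anhydrase-related protein without enzyme activity that binds neurexins at the cell surface (chromosome 11, 93098028 to 93601749, plus strand). The controls lay close together, at 4.52, 4.53, 4.69 and 4.57 CPM, and the libraries labelled Upf2cKO were spread, at 7.0, 5.70, 4.38 and 6.02 CPM. The library labelled Upf2cKO 3 was below all controls and the other 3 above. The means were 4.58 ± 0.0780 and 5.77 ± 1.08 CPM, 1.24-fold (log2 change 0.31, SE 0.12, limma adjusted p = 0.0495). This call sat at the threshold and was lost when any single library other than that labelled Upf2cKO 3 was left out (adjusted p up to 0.110). Its relative Car11 rose 1.45-fold.

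**Figure D2:**
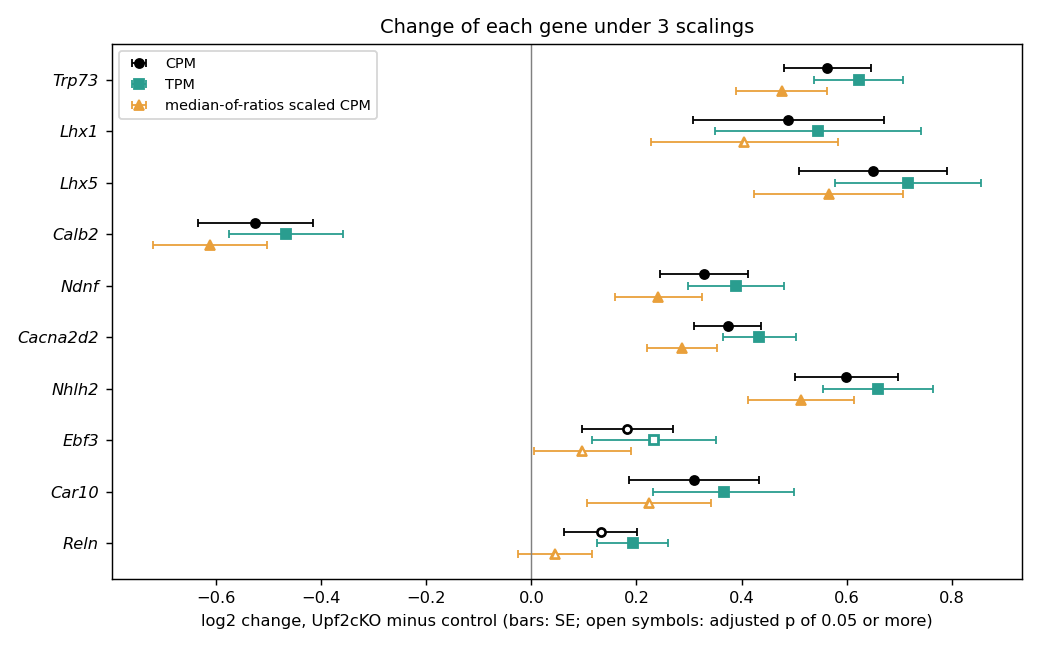
Log2 change (libraries labelled Upf2cKO minus controls) with its SE for the 9 genes and Reln, from CPM, TPM and CPM rescaled by median-of-ratios factors; open symbols did not pass the test at an adjusted p of 0.05. Calb2 is below 0 and the other 8 genes are above 0 under all 3 scalings, with Lhx1 and Car10 open under the median-of-ratios scaling.

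Levels of different genes were compared by TPM, which divides by gene length. In the controls Calb2 was highest, at 33.0 to 41.3 TPM, followed by Ndnf at 20.8 to 24.85 TPM and Cacna2d2 at 19.9 to 23.4 TPM. Ndnf and Cacna2d2 overlapped, while Calb2 stood clear of both. Nhlh2 at 11.5 to 14.5 TPM, Trp73 at 8.75 to 9.81 TPM, Lhx5 at 3.80 to 5.24 TPM and Car10 at 2.81 to 2.95 TPM followed, each clear of its neighbours, and Ebf3 (1.82 to 2.07 TPM) and Lhx1 (1.68 to 2.05 TPM) shared the lowest place.

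In the libraries labelled Upf2cKO the top of this order closed up. Ndnf at 27.0 to 34.95 TPM, Cacna2d2 at 26.2 to 31.45 TPM and Calb2 at 22.8 to 30.6 TPM overlapped each other, and Nhlh2 at 17.9 to 23.7 TPM reached into the range of Calb2. Below them Trp73 held 13.0 to 16.2 TPM and Lhx5 6.26 to 8.70 TPM, both clear of their neighbours. Car10 (2.89 to 4.51 TPM), Lhx1 (1.83 to 3.41 TPM) and Ebf3 (2.00 to 2.53 TPM) overlapped in part.

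Reln, the gene of reelin, is the product the cells are best known for, though interneurons express it too. It held 390 to 424 CPM in the controls and 414 to 522 CPM in the libraries labelled Upf2cKO. The ranges overlapped, and its change, 411 ± 16.1 to 452 ± 49.0 CPM, did not pass the test (log2 change 0.13, limma adjusted p = 0.119); with TPM it did, at 0.19 (adjusted p = 0.0378). With median-of-ratios scaling its log2 change was 0.044 (limma adjusted p = 0.597), and without the library labelled Upf2cKO 2 it was 0.060 (adjusted p = 0.301).

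Each gene was therefore also set against Reln within its library, as a percentage of the TPM of Reln. As Reln itself rose by 0.19 in TPM, this ratio makes rises smaller and falls larger. The log2 change of Trp73 was 0.62 in TPM and 0.44 relative to Reln, and that of Calb2 was -0.47 and -0.66. Trp73 stood at 13.7% ± 0.392 of Reln in the controls and 18.6% ± 1.08 in the libraries labelled Upf2cKO, Nhlh2 at 18.46% ± 1.43 and 25.7% ± 3.17, and Lhx5 at 6.76% ± 0.950 and 9.77% ± 1.06. Cacna2d2 stood at 30.9% ± 1.71 and 36.6% ± 1.83, and Calb2 at 53.7% ± 5.37 and 34.4% ± 6.95. For these 5 genes the groups did not overlap, and the exact two-sided permutation test gave p = 0.0286, the smallest that its 70 arrangements allow. Adjusted over the 9 genes it was 0.0514, so none passed 0.05. The groups of these 5 genes were already apart in CPM, so the test is not separate support for their changes. The other 4 overlapped. Ndnf stood at 33.5% ± 3.35 and 38.5% ± 4.25 and Lhx1 at 2.7% ± 0.320 and 3.55% ± 0.771 (exact permutation p = 0.114 for both), with Car10 at 4.16% and 4.81% (p = 0.4) and Ebf3 at 2.82% and 2.93% (p = 0.571).

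**Figure D3:**
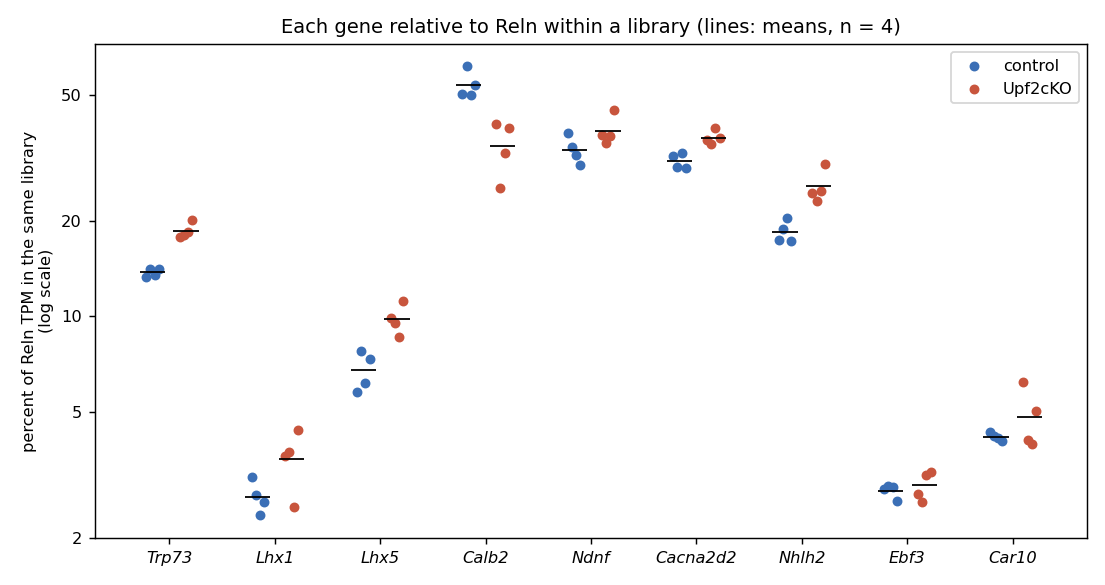
TPM of each of the 9 genes as a percentage of the TPM of Reln in the same library, on a log axis, with 4 points a group. The groups are apart for Trp73, Lhx5, Calb2, Cacna2d2 and Nhlh2, with Calb2 falling from a mean of 53.7% to 34.4%.

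The order of the libraries labelled Upf2cKO differed from gene to gene. The library labelled Upf2cKO 4 was the highest of its group for 5 of the 9 genes and the second highest for the other 4. That labelled Upf2cKO 2 was highest for 3, second for 4 and lowest for 1 (Calb2). That labelled Upf2cKO 3 was lowest for 5 and highest or second for none, and that labelled Upf2cKO 1 was highest for Car10, second for 1 gene and lowest for Trp73, Cacna2d2 and Ebf3. The most Ttr was also found in the library labelled Upf2cKO 4, and the part of choroid plexus tissue in the result was not tested. Without it and control 4, the log2 changes of the 6 genes whose groups did not overlap kept their direction and passed the test, and Lhx1 (0.39, limma adjusted p = 0.161) and Car10 (0.28, adjusted p = 0.166) did not pass.

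**Figure D4:**
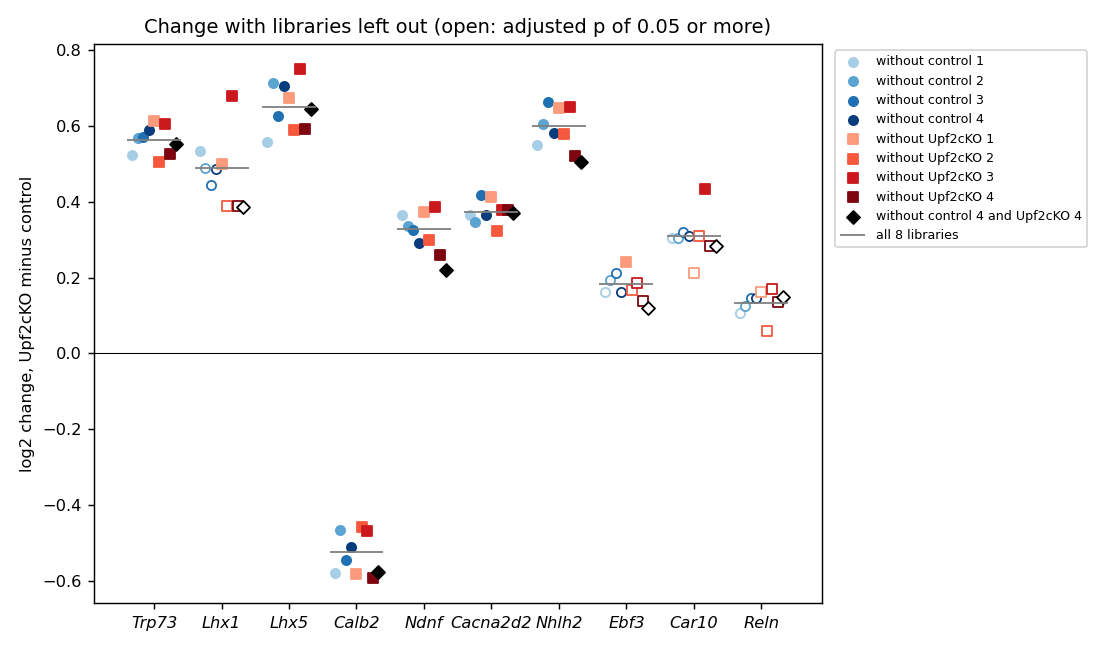
Log2 change of the 9 genes and Reln when each library, or control 4 and the library labelled Upf2cKO 4 together, was left out; open symbols did not pass at an adjusted p of 0.05. Trp73, Lhx5, Calb2, Ndnf, Cacna2d2 and Nhlh2 stay filled throughout, while Car10 is filled only without the library labelled Upf2cKO 3. Grey lines give the change with all 8 libraries.

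A further 15 genes known from Cajal-Retzius cells, Reln among them, were all tested: 5 rose, 5 fell and 5 did not pass. Among all tested genes 36.7% were higher and 26.3% lower, so these counts do not set the 15 apart from other genes. Beside Nhlh1 and Lhx1os, the risers were Ackr3 (22.3 ± 0.524 to 30.9 ± 1.30 CPM, 1.38-fold) and Cxcr4 (39.3 ± 1.82 to 45.3 ± 2.18 CPM, 1.15-fold), receptors of the meningeal chemokine CXCL12, and Mab21l1 (1.41-fold). With median-of-ratios scaling the log2 change of Cxcr4 went from 0.20 to 0.12 and did not pass (limma adjusted p = 0.0654), and Mab21l1 did not pass when genes were not filtered (adjusted p = 0.0501). Cxcr4 and Ackr3 are also expressed by migrating interneurons. The genes that fell are expressed by other cortical cells as well. Among them were Eomes, a factor of intermediate progenitors (94.2 ± 10.8 to 47.1 ± 6.08 CPM, 2.00-fold lower), Dmrta2 (1.38-fold lower), Zic1 (1.33-fold lower) and Tbr1, a factor of deep-layer neurons (1.13-fold lower). The calls of Tbr1 and Dmrta2 were lost with TPM (log2 changes -0.12 and -0.40, limma adjusted p = 0.186 and 0.107), with no filter, with no intensity trend, and without control 4 and the library labelled Upf2cKO 4 together (adjusted p = 0.0731 and 0.173). Leaving out 1 library, Tbr1 did not pass without control 3 (-0.15, adjusted p = 0.0793) or control 4 (adjusted p = 0.0511). Dmrta2 did not pass without control 2, 3 or 4 or the library labelled Upf2cKO 4 (adjusted p up to 0.103), or without that labelled Upf2cKO 1, where its log2 change was -0.27 against -0.46 with all libraries. The median log2 change of the 15 was 0.20.

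Of 17 genes of the cortical hem and the other sites of origin, 7 were expressed enough to be tested, and Wnt3a and Lmx1a, the defining genes of the hem, had means of 0.0200 to 0.378 CPM. The signalling gene Wnt2b rose 1.45-fold, while Rspo2, which encodes an amplifier of Wnt signalling, fell from 23.6 ± 1.79 to 14.1 ± 1.26 CPM (1.67-fold lower), as did Dkk3 (1.79-fold lower) and Rspo3 (1.22-fold lower), which did not pass with TPM (limma adjusted p = 0.0534). The other 3 did not pass.

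Among relatives and regulators of p73, 7 of 8 genes were tested, with 2 higher and 2 lower. Trp53, the gene of p53, had means of 62.4 ± 3.84 and 64.3 ± 2.87 CPM and did not pass, and Trp63 was below the filter. Mdm4, whose product binds p53 and p73, rose from 222 ± 10.4 to 339 ± 9.49 CPM (1.52-fold, limma adjusted p = 5.27e-07). Itch, a ubiquitin ligase of p73, rose 1.15-fold, and Fbxo45, part of another such ligase, fell (1.18-fold lower), as did the p53-family target Perp (1.47-fold lower). Perp did not pass without control 1 (limma adjusted p = 0.0552), Itch with median-of-ratios scaling (adjusted p = 0.0628) or Fbxo45 with TPM (adjusted p = 0.0599). Of 8 relatives and cofactors of the LIM-homeodomain factors tested, Lhx6 rose 1.62-fold and 4 fell, among them Lmo4 (1.81-fold lower) and Lhx2 (1.48-fold lower). Of 5 calcium-binding and carbonic anhydrase relatives tested, Calb1 and Car11 rose and Car8 fell, the last not passing with TPM (limma adjusted p = 0.0622), without control 4 and the library labelled Upf2cKO 4 together (adjusted p = 0.0542), or without control 1, 2 or 4 or the library labelled Upf2cKO 2 (limma adjusted p up to 0.0582).

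Markers of other cells in the sample moved in the same comparison. All 19 interneuron markers passed the test, 18 higher and 1 lower, and their summed level was 769 to 842 CPM in the controls and 1054 to 1202 CPM in the libraries labelled Upf2cKO. Dlx1 rose from a mean of 140 to 205 CPM, and Npy fell from 64.5 to 26.9 CPM. The median log2 change of the interneuron markers was 0.55, and that of the 9 Cajal-Retzius genes was 0.37. Reln, Calb2, Ndnf, Cxcr4 and Ackr3 are used by interneurons too. The part of interneurons in the results for these genes and for the rest of the 9 was not tested. The 9 genes together held 157 to 167 CPM in the controls and 186 to 225 CPM in the libraries labelled Upf2cKO. Ndnf and Cacna2d2 held most of this sum, with control means of 58.5 and 42.5 CPM.

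Markers of tissue that a dissection could carry along went in several directions, with sums taken over all listed genes, tested or not. Thalamus and hypothalamus markers summed to 91.6 to 95.2 CPM in the controls and 71.0 to 77.2 CPM in the libraries labelled Upf2cKO (6 of 15 tested, 2 higher and 3 lower, with Foxb1 at 0 in all libraries). Slc17a6 held the largest part of this sum and fell from a mean of 60.4 to 40.7 CPM. The 2 that rose, Pomc (0.82 to 1.65 CPM) and Nkx2-1 (0.675 to 1.21 CPM), held little of it. Striatum markers summed to 40.7 to 47.4 and 25.3 to 34.9 CPM (8 of 10 tested, 4 lower). Meningeal fibroblast markers, from the tissue that lies on the Cajal-Retzius cells, summed to 55.8 to 62.7 and 52.2 to 64.5 CPM, with 2 of 9 tested higher and 2 lower. Cxcl12 held most of this sum and fell from a mean of 41.9 to 34.0 CPM. Dcn rose from 2.63 to 9.42 CPM (3.47-fold) and Crabp2 from 0.50 to 1.6 CPM (2.84-fold), both without overlap. Ogn fell from 1.7 to 1.0 CPM, with limma adjusted p up to 0.0504 when 1 library was left out. None of the 4 choroid plexus markers tested passed, and the sum over all 10 listed ran from 10.03 to 141 CPM in the controls and from 9.02 to 293 CPM in the libraries labelled Upf2cKO. Subplate markers summed to 125 to 133 and 146 to 159 CPM (3 of 7 tested higher, 1 lower), and of 8 cortex markers 2 were higher and 5 lower. The part of these cells in the results for the 9 genes was not tested.

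**Figure D5:**
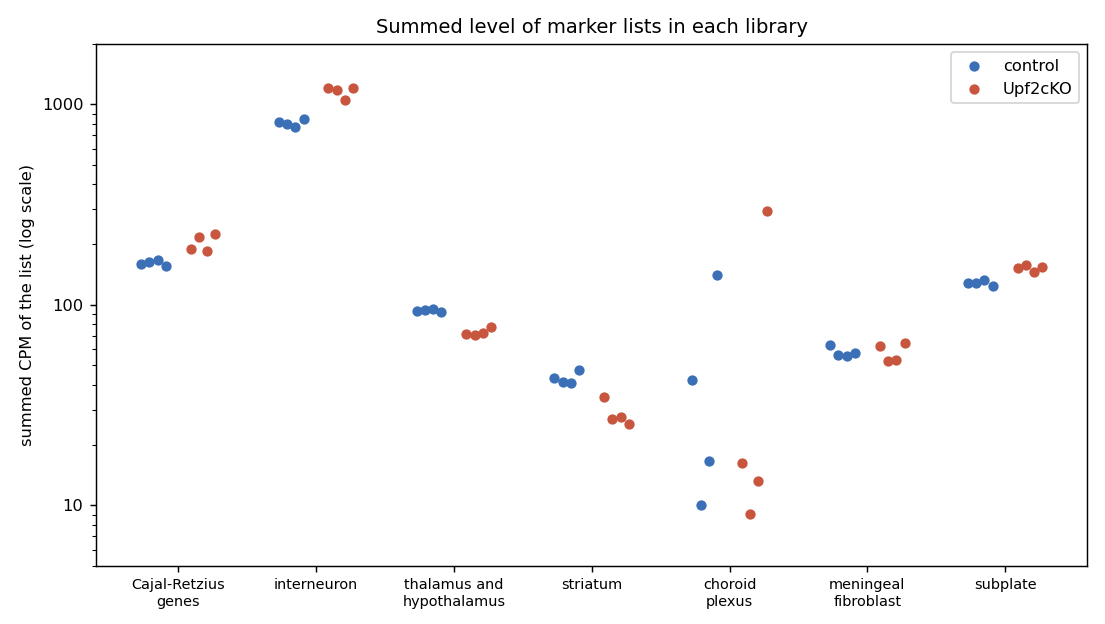
Summed CPM of each marker list in each library, on a log axis, for the 9 Cajal-Retzius genes and the markers of other cells and tissues. The sums of the 9 genes and of the interneuron markers are higher in all 4 libraries labelled Upf2cKO. Those of the thalamus and striatum markers are lower, and the choroid plexus sum is high in 1 library of each group. Slc17a6 holds the largest part of the thalamus and hypothalamus sum.

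Of the other annotated neighbours, Gm16111, a pseudogene on the opposite strand within Reln, rose from 0.92 ± 0.029 to 1.33 ± 0.12 CPM, 1.40-fold and without overlap (limma adjusted p = 0.00311). Wrap73, next to Trp73, had means of 24.1 and 25.0 CPM, and Tmem115, next to Cacna2d2, of 20.3 and 21.0 CPM, and neither passed. The RNAs antisense to Trp73 (Trp73os), Lhx5 (Gm27199), Cacna2d2 (Gm17141) and Ebf3 (Gm45278) were below 0.5 CPM in all libraries. Calb2, Ndnf and Nhlh2 had no annotated neighbour within 5 kb.

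For each gene, the one most alike across the 8 libraries was sought among 14819 genes by Pearson's r. These were Gm43172 for Trp73 (r = 0.989), Nudt9 for Lhx5 (r = 0.986), Zfp438 for Lhx1 (r = 0.958), Akirin1 for Nhlh2 (r = 0.986), Parg for Ebf3 (r = 0.985), Npc2 for Calb2 (r = 0.976), Zfp69 for Cacna2d2 (r = 0.990), Rrp8 for Ndnf (r = 0.978) and Cntnap2 for Car10 (r = 0.981). None of the 9 was the closest match of another. The 8 points share the split into 2 groups and the library totals, so the values only describe these libraries.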

How the data were processed

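RNA from E18.5 mouse cortex was sequenced in 8 libraries, 4 a group, with the groups taken from the labels. The authors deposited a CPM table and a TPM table of 55487 genes, rounded to 2 decimals. Per the submitters' processing notes, the tools included STAR 2.7.11a and fastp 0.23.4 and the build was mm10. For the counting tool, annotation and strand setting the labels give nothing, so reads of overlapping genes may be shared. Symbols were matched for 55141 identifiers.

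Depth was inferred from short genes with few reads, whose values rise in steps of 1 read; 99.9% or more of these were whole within 0.15 reads, in a routine tested on simulated data. Since 2 decimals hide the reads of other genes, no count test was run. The test was limma's (version 3.58.1 in R 4.3.3), run on log2(CPM + 0.1) for the 16573 genes that reached 0.5 CPM in 4 or more libraries. It used an intensity trend, no covariate and Benjamini-Hochberg adjustment over those genes. Folds on this scale understate changes of low genes.

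The genes and lists were chosen with earlier results of these data known. Genes named beyond the 9 are those of the lists, the annotated neighbours within 5 kb and the most alike gene of each of the 9. From the lists of relatives and of other cells, mainly the genes that passed with the smallest adjusted p were named. They are therefore not typical of their lists. Alternatives were TPM, pseudocounts of 1 and 0.01, no filter, a filter at 2 CPM, median-of-ratios scaling, no trend, a replicate block, and leaving out libraries.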

Additional observations from a re-analysis of the deposited data

Results flagged for a closer look

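In 58 groups of 4 libraries over 29 genes, 2 values stood far from the other 3 of their group, where chance gives about 1 in 20 groups. Both belong to Aatf, the neighbour of Lhx1. Control 1 held 35.1 CPM against 39.4 to 40.2 CPM in the other controls, and the library labelled Upf2cKO 1 held 96.65 CPM against 105 to 106 CPM in the others of its group. None of the 9 Cajal-Retzius genes had such a library.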

How the results depend on the processing

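Trp73, Lhx5, Calb2, Ndnf, Cacna2d2 and Nhlh2 kept their direction and passed the test under all 17 alternatives, with log2 changes of 0.48 to 0.62, 0.53 to 0.75, -0.61 to -0.46, 0.22 to 0.39, 0.29 to 0.43 and 0.50 to 0.66. Lhx1 and Car10 did not pass with no filter (0.49 and 0.31), with median-of-ratios scaling (0.41 and 0.22) or without control 4 and Upf2cKO 4 together (0.39 and 0.28), nor did Car10 with no trend (0.31). With 1 library left out, Lhx1 ran from 0.39 to 0.68, Car10 from 0.21 to 0.43, and Ebf3 from 0.14 to 0.24. Reln passed with TPM (0.19). Of the further 15 Cajal-Retzius genes, 3 were higher with a filter at 2 CPM, in which fewer genes are tested, and 3 were lower with TPM, with no filter, with no trend and without control 4 and Upf2cKO 4 together, against 5 in each direction; with 1 library left out, 5 to 7 were higher and 3 to 5 lower. Otherwise the cause was not tested. Genes that had not passed changed sign: Wrap73 (-0.032) and Tmem115 (-0.037) with median-of-ratios scaling, and, with 1 library left out, Ebf1 (range -0.22 to 0.020, above 0 without Upf2cKO 2), Ttr (-2.61 to 0.14, above 0 without control 4) and Sulf1 (-0.28 to 0.11, above 0 without control 4, Upf2cKO 1 or Upf2cKO 2). Over 62 other named genes, 983 of the values kept direction and call and 47 lost the call. The median of all genes was 0.04 with CPM, 0.12 with TPM and -0.05 with median-of-ratios scaling.

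With the group means taken off, libraries of the same number correlated at 0.42, 0.05, 0.52 and 0.19, and the other pairs at -0.45 to 0.33. The control of the same number was the best match for Upf2cKO 1, 3 and 4. For Upf2cKO 2 it was control 4 (0.25). The labels name no pairing, so the main comparison used none, and whether the numbers mark a shared litter or batch was not tested. With a replicate block 6126 genes were higher and 4423 lower, and no call of the 9 genes changed.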
